A study of Mus musculus with 196 samples.

Results

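Interferon-stimulated genes are the genes that cells switch on when an interferon binds its receptor. A list of 34 such genes was followed through mouse skin of 3 kinds, and 30 of the 34 were measured by a probe set that names that gene alone, out of 18820 genes measured in this way. The 4 that were not are Gbp6, Parp9 and Igtp, whose probe sets also name another gene, and Ifi44, for which no probe set was named. The list was set by gene name, with earlier results of these data known. By role it holds 3 Ifit genes, 5 genes of the oligoadenylate synthetase (OAS) family, Isg15 with its protease Usp18, 9 other antiviral effectors, 3 RNA sensors, 4 transcription factors, 5 GTPases and 3 poly(ADP-ribose) polymerases (PARPs).

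Type I and type III interferons act on promoters through the interferon-stimulated response element (ISRE), and interferon gamma acts through the gamma-activated site (GAS). The induced proteins degrade or sequester viral RNA, block virus entry and release, sense viral nucleic acid and feed back on the pathway. In skin these genes are known to be expressed at a low level without infection and to be raised in keratinocytes and immune cells by infection, wounding and inflammation.

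Expression was measured by microarray, with 1 ug of total RNA per array, in skin of 100 mice that were 8 weeks old and had received no treatment; all values are log2 expression. The mice were the offspring of F1 females, from FVB/N mothers and Mus spretus fathers, mated to FVB/N males, so that at an autosomal locus a mouse carries either FVB/N alleles only or an FVB/N and a Mus spretus allele; genotypes were not used here. Tail skin gave 97 arrays (48 females and 49 males). Dorsal skin labelled as anagen (the phase in which hair grows) gave 14 arrays (8 females and 6 males), and dorsal skin labelled as non-anagen gave 85 arrays (41 females and 44 males). Both tail and non-anagen dorsal skin were measured in 82 mice, and both tail and anagen dorsal skin in 14 mice.

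Tail arrays were in batches 3 (3 arrays) and 4 (94 arrays) and dorsal arrays in batches 1 (89 arrays) and 2 (10 arrays), so batch and site cannot be told apart. The median of all probe sets lay between 5.75 and 6.03 on tail arrays, between 5.71 and 5.89 on anagen arrays and between 5.67 and 6.0 on non-anagen arrays. The labels of the sites were borne out by position and hair follicle genes. All 4 listed genes of tail position (among them Hoxd11, 9.55 ± 0.14 in tail skin and 5.04 ± 0.35 in non-anagen dorsal skin) were higher in tail skin, and all 5 listed hair follicle genes were higher in anagen than in non-anagen dorsal skin. Of all genes, 43.7% were higher in the first comparison and 4.11% in the second. Dorsal arrays of 4 mice stood apart in the members: with each member standardised within its site after sex and batch were regressed out, the mean over the 30 members was 4.06 in mouse 1075, 2.61 in mouse 1010, 2.15 in mouse 1093 and 1.43 in mouse 1026, against a highest value under 1 in the other 81 non-anagen arrays. One tail array (mouse 1017, 1.95) and one anagen array (mouse 1111, 1.23) also exceeded 1. The main counts and medians of the members are given with and without these arrays, and the values of single members only in part.

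Promoters of the members often held the element that the pathway acts on. Windows of 250 bases before to 50 bases after the start of transcription (RefSeq, GRCm38.p6) were found for 24 of the 34 members. The ISRE, searched as GAAANNGAAA on both strands, was present in 14 of these 24 members (58.3%), against 3.99% of the 27025 genes with such a window. The GAS, searched as TTCNNNGAA, was present in 6 members (Bst2, Ifi35, Ifit2, Igtp, Irf1 and Oas1a, 25%), against 9.55% of all genes. The shorter AANNGAAA, which every ISRE match contains, was present in 18 members (75%), against 26.7% of all genes. A match describes letters in the window and does not show that a factor binds there.

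The 250 bases before the start are shown for the 4 members with an ISRE whose levels followed the other members most closely over all 85 non-anagen arrays, with the ISRE letters in capitals. That order rests on the arrays that stood apart: over the other 81, r with the other members was 0.60 for Ifit1, 0.69 for Irgm1, 0.46 for Isg15 and 0.42 for Rsad2, against 0.68 for Gbp2 and 0.68 for Gbp3, which also hold an ISRE. They are Ifit1 (chr19:34640639-34640888, plus strand), Irgm1 (chr11:48871421-48871670, minus strand), Isg15 (chr4:156200819-156201068, minus strand) and Rsad2 (chr12:26456453-26456702, minus strand).
Ifit1: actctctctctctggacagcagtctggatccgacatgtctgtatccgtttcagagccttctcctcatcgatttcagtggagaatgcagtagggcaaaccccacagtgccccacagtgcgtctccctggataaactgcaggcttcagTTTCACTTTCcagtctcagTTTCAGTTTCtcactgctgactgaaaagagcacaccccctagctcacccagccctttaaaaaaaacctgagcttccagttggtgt
Irgm1: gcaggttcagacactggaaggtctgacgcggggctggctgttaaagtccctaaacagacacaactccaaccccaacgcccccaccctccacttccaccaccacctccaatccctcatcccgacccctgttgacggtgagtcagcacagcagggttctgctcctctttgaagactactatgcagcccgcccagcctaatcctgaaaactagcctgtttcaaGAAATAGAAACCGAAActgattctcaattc
Isg15: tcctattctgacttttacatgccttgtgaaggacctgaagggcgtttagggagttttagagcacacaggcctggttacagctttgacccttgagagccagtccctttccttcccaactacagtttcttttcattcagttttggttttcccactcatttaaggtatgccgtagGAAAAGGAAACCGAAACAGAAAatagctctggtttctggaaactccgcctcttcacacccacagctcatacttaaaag
Rsad2: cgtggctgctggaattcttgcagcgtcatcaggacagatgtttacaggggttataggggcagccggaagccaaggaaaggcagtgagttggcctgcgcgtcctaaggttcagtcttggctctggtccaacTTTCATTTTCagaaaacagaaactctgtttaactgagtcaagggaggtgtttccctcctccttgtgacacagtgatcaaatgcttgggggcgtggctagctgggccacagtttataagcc
In Ifit1 and Rsad2 the element lies on the opposite strand, so its reverse complement is in capitals. Ifit1 holds 2 separate matches, whose first bases are 104 and 85 bases before the start. Isg15 holds 3 overlapping matches that begin 78, 72 and 66 bases before the start, Irgm1 holds 2 that begin 30 and 24 bases before it, and Rsad2 holds 1 that begins 120 bases before it.

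The members with no ISRE in the window that followed the others least over all 85 arrays were Oasl1 (chr5:114922990-114923239, plus strand) and Ifit2 (chr19:34550444-34550693, plus strand), shown for comparison. Over the other 81 arrays r was 0.11 for Oasl1 and 0.30 for Ifit2, with Irf9 (0.13) and Ifi35 (0.20), which have no ISRE in the window either, below Ifit2.
Oasl1: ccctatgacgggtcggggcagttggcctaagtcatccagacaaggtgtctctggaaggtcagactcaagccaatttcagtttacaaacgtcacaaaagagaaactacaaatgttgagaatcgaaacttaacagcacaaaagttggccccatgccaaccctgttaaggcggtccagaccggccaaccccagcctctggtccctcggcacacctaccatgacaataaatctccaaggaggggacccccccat
Ifit2: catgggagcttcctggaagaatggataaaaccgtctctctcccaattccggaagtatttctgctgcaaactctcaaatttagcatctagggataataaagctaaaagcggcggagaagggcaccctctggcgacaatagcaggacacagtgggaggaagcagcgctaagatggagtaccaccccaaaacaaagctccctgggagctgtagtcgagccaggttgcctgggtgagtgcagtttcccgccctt
Oasl1 holds the shorter AANNGAAA 3 times, and Ifit2 holds a single GAS match that begins 241 bases before the start. Oasl2, the member that followed the others most closely over both sets of arrays, also has no ISRE match in its window.

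The members were lower in tail skin than in non-anagen dorsal skin. In limma's fit over all 18820 genes, 26 of the 30 members were lower in tail skin at an adjusted p under 0.05, against 43.4% of all genes, and 1 was higher (Mx2), against 43.7% of all genes. The median difference, tail minus non-anagen dorsal, was -0.52 on the log2 scale over the members and 0.00 over all genes. At least a 2-fold difference, 1 on the log2 scale, was reached by 7 of the 30 members, against 2.02% of all genes, all 7 lower in tail skin. Without the arrays whose members' mean exceeded 1, 26 members were lower (43.4% of all genes) and 2 higher (Mx2 and Irf7, against 43.5%). Then 5 members were lower by at least 1 (380 of 18820 genes), and the median was -0.43. By mean level, 25 of the 30 members lay below the median of all genes in tail skin and 17 in non-anagen dorsal skin. Of genes low at both sites, more than 43.4% were lower in tail skin. The part of a low level in the members' difference was not tested. In bulk skin, fewer cells of a type and less RNA per cell cannot be told apart.

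**Figure D1:**
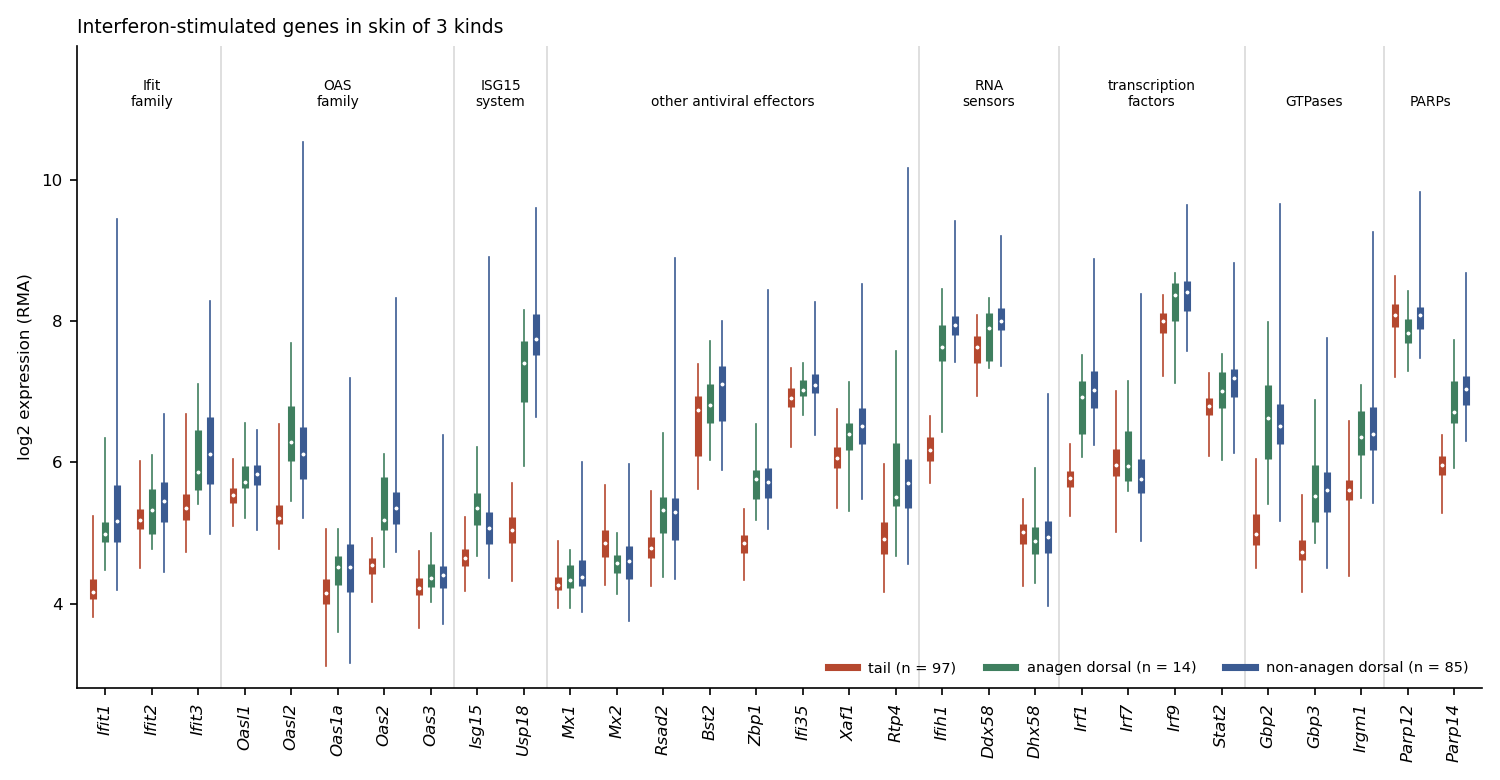
Log2 expression of the 30 measured members in tail skin (97 arrays), anagen dorsal skin (14) and non-anagen dorsal skin (85), grouped by role. Thin lines span the lowest to the highest array, thick bars the quartiles, and white points the medians; Usp18 and Ifih1 in tail skin lie wholly below non-anagen dorsal skin, and the thin lines reach highest in non-anagen dorsal skin for genes such as Oasl2 (10.53) and Rtp4 (10.16).

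Usp18, which removes ISG15 from proteins and dampens signalling at the type I interferon receptor, differed most. Its lowest, median and highest log2 levels were 4.33, 5.04 and 5.71 in tail skin, 5.95, 7.41 and 8.16 in anagen dorsal skin and 6.65, 7.75 and 9.60 in non-anagen dorsal skin. No tail array reached the lowest non-anagen or anagen array. The difference between tail and non-anagen dorsal skin was -2.74 (SE 0.0582, adjusted p = 6.33e-107), or 6.69-fold lower in tail skin. Isg15, the ubiquitin-like protein that Usp18 removes, had lowest, median and highest levels of 4.18, 4.64 and 5.22 in tail skin, 4.68, 5.35 and 6.22 in anagen dorsal skin and 4.36, 5.08 and 8.91 in non-anagen dorsal skin. Its groups overlapped widely, and it was lower in tail than in non-anagen dorsal skin, with a smaller difference of -0.54 (SE 0.07, adjusted p = 1.56e-12).

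Among the sensors of viral RNA, Ifih1 (MDA5) had lowest, median and highest levels of 5.71, 6.17 and 6.66 in tail skin, 6.43, 7.63 and 8.45 in anagen dorsal skin and 7.42, 7.95 and 9.41 in non-anagen dorsal skin. All 97 tail arrays lay below all 85 non-anagen arrays, and the difference was -1.78 (SE 0.0454, adjusted p = 7.69e-93). Usp18 and Ifih1 were the 2 of 30 members whose tail and non-anagen arrays did not overlap, against 1.9% of all genes. Ddx58 (RIG-I), which senses the ends of viral RNA, overlapped and was lower with a smaller difference of -0.43 (SE 0.0413, adjusted p = 4.60e-20). Dhx58 (LGP2), a helicase of the same family that modulates both, did not pass: -0.01 (SE 0.0563, adjusted p = 0.872).

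The GTPases of the guanylate-binding and immunity-related families, which act on the vacuoles of intracellular pathogens, were lower in all 3 measured members. Gbp2 had lowest, median and highest levels of 4.50, 4.99 and 6.05 in tail skin, 5.41, 6.63 and 7.99 in anagen dorsal skin and 5.17, 6.52 and 9.65 in non-anagen dorsal skin. Tail arrays were low as a group but overlapped the dorsal range, and the difference was -1.50 (SE 0.0839, adjusted p = 2.76e-42). Irgm1, a regulator of the other immunity-related GTPases, had lowest, median and highest levels of 4.39, 5.60 and 6.59 in tail skin, 5.49, 6.36 and 7.10 in anagen dorsal skin and 5.43, 6.41 and 9.26 in non-anagen dorsal skin and differed by -0.94 (SE 0.0711, adjusted p = 2.58e-28). Gbp3, a guanylate-binding protein like Gbp2, differed by -0.90.

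Of the 4 transcription factors of the pathway, 3 were lower in tail skin. Irf1, which is induced by interferon gamma and acts on many of the same promoters, had lowest, median and highest levels of 5.24, 5.78 and 6.26 in tail skin, 6.07, 6.92 and 7.52 in anagen dorsal skin and 6.24, 7.03 and 8.87 in non-anagen dorsal skin. All but 1 of the 97 tail arrays lay below the lowest non-anagen array, and the difference was -1.29 (SE 0.05, adjusted p = 1.05e-63). Irf9 and Stat2, which act together at the ISRE, were lower with differences of -0.44 and -0.37. Irf7, which amplifies type I interferon production, did not pass: 0.13 (SE 0.0652, adjusted p = 0.0617). Without the arrays whose members' mean exceeded 1, Irf7 was higher in tail skin (0.21, adjusted p = 2.23e-05), and with each array shifted to the same median its difference was below 0 (-0.08) and did not pass.

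The Ifit genes, whose proteins bind viral RNA, were lower in 3 of 3. Ifit1 had lowest, median and highest levels of 3.80, 4.17 and 5.23 in tail skin, 4.48, 4.99 and 6.35 in anagen dorsal skin and 4.19, 5.16 and 9.44 in non-anagen dorsal skin. Of the 97 tail arrays, 51 lay below the lowest non-anagen array, and the difference was -1.07 (SE 0.0837, adjusted p = 5.44e-27). Ifit3, which stabilises IFIT1 in human cells, differed by -0.81, and Ifit2 by -0.23.

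The OAS family, of which Oas1a, Oas2 and Oas3 make the second messenger that activates RNase L, was lower in 5 of 5. Oasl2 had lowest, median and highest levels of 4.78, 5.22 and 6.54 in tail skin, 5.45, 6.29 and 7.69 in anagen dorsal skin and 5.21, 6.11 and 10.53 in non-anagen dorsal skin and differed by -1.0 (SE 0.0968, adjusted p = 6.81e-20); without the arrays whose members' mean exceeded 1 that difference was -0.86. Its tail arrays were close together (SD 0.264) and its non-anagen arrays far apart (SD 0.917), and the 4 highest of these were the arrays that stood apart. Oas2 differed by -0.90, Oas1a by -0.40, Oasl1 by -0.28 and Oas3 by -0.17. With quantile normalization the Oas3 difference was -0.00476 and did not pass (adjusted p = 0.934). Oas1a has a second probe set that also names Oas1g and was not used.

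Among the other antiviral effectors, 7 of 8 measured members were lower in tail skin. Zbp1, a sensor of Z-form nucleic acid that can start cell death, differed by -0.93 and Rtp4, which dampens interferon responses in mice, by -0.93. Rsad2 (viperin), which blocks replication of several viruses, differed by -0.54, Xaf1, a pro-apoptotic factor, by -0.51, and Bst2 (tetherin), which holds budding virus at the cell surface, by -0.44. The smallest called differences were in Ifi35 (-0.20), a partner of NMI, and Mx1 (-0.16), a GTPase against influenza-like viruses. With quantile normalization the Mx1 difference was 0.00265 and did not pass (adjusted p = 0.951). Mx2, a related GTPase, was the exception, at 4.85 ± 0.28 in tail skin and 4.61 ± 0.39 in non-anagen dorsal skin (SD, n = 97 and 85), a difference of 0.24 (SE 0.0484, adjusted p = 3.06e-06); with each array shifted to the same median it was 0.03 and did not pass (adjusted p = 0.552).

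The PARPs differed from each other. Parp14, which adds ADP-ribose to proteins, had lowest, median and highest levels of 5.29, 5.96 and 6.39 in tail skin, 5.92, 6.72 and 7.74 in anagen dorsal skin and 6.31, 7.04 and 8.67 in non-anagen dorsal skin with a difference of -1.13 (SE 0.0464, adjusted p = 7.52e-60) and with 96 of 97 tail arrays below the lowest non-anagen array. Parp12, which acts against RNA viruses, had means of 8.07 ± 0.23 in tail skin and 8.07 ± 0.34 in non-anagen dorsal skin (SD, n = 97 and 85), and its difference did not pass: -0.01 (SE 0.0429, adjusted p = 0.89). With quantile normalization Parp12 was lower in tail skin with a difference of -0.26 (adjusted p = 3.78e-09), and with each array shifted to the same median it was lower with one of -0.21 (adjusted p = 8.61e-07).

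Shifting each array to the same median moved the median of all genes in this comparison to -0.21, and the calls over all genes to 11308 lower and 5481 higher, against 8167 lower and 8222 higher as deposited. Under that shift 28 members were lower and 0 higher, with a median of -0.73, which is -0.52 relative to all genes. The members' direction as a group was therefore the same on both scales, and over the shift and quantile normalization 6 members changed their side of the threshold or of 0, namely Mx1, Mx2, Oas3, Irf7, Parp12 and Dhx58.

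Against anagen dorsal skin, 21 of 30 members were lower in tail skin (34.9% of all genes) and 2 were higher (38.8%), and 5 were lower by at least 1 (1.69%). The median difference was -0.43. Usp18 differed by -2.21 (SE 0.112, adjusted p = 2.28e-46), Gbp2 by -1.56 (SE 0.162, adjusted p = 2.47e-17) and Ifih1 by -1.41 (SE 0.0874, adjusted p = 5.73e-36). The other 2 of the 5 were Oasl2, which differed by -1.09 (SE 0.186, adjusted p = 6.85e-08), and Irf1, which differed by -1.06 (SE 0.0962, adjusted p = 4.88e-21). Rtp4 (-0.94), Parp14 (-0.90) and Zbp1 (-0.89) followed. Usp18 was the only member whose tail and anagen arrays did not overlap (1 of 30, against 1.94% of all genes). The 2 that were higher in tail skin were Mx2 (0.30) and Parp12 (0.23), and with each array shifted to the same median, which moved the median of all genes to -0.18 and the calls over all genes to 9649 lower and 4909 higher (6561 and 7308 as deposited), neither passed. All 14 anagen mice also had a tail array. In the paired difference within each mouse 17 members were lower (4520 of 18820 genes) and 1 (Mx2) was higher (6052 genes). That fit no longer called Ddx58, Irf9, Oasl1, Stat2, Xaf1 and Parp12 (0.14, adjusted p = 0.221), and it called Bst2 as lower. Without the arrays whose members' mean exceeded 1, the unpaired fit had 21 members lower (34.6% of all genes) and 2 higher (39%), with a median of -0.37. In limma's fit without them Stat2 no longer passed (adjusted p = 0.0686) and Oas3 passed as lower (adjusted p = 0.0418). The tail arrays are shared with the comparison to non-anagen skin, so the 2 comparisons are not separate support for each other.

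**Figure D2:**
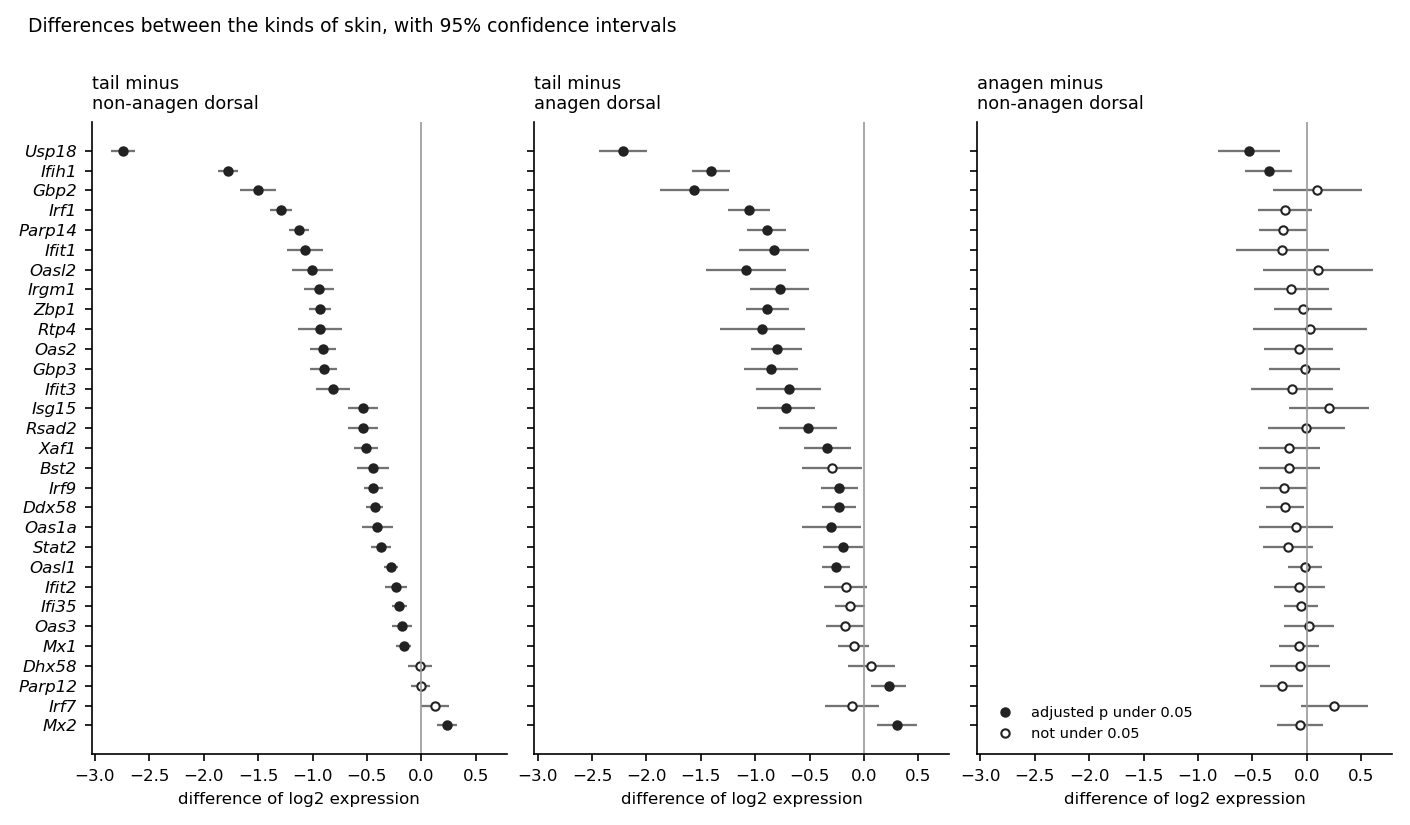
Differences of log2 expression with 95% confidence intervals for the 30 members, tail minus non-anagen dorsal, tail minus anagen dorsal and anagen minus non-anagen dorsal. Filled points passed an adjusted p under 0.05: 26 lower and 1 higher in the first panel, 21 lower and 2 higher in the second, and 2 lower in the third, with Usp18 (-2.74, -2.21 and -0.53) at the left of each.

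Hair cycle state within dorsal skin went with little difference. In anagen against non-anagen dorsal skin, 2 of 30 members were lower (3.59% of all genes) and 0 were higher (4.11%), with 5 members at an unadjusted p under 0.05. The median difference was -0.07. Usp18 was 7.25 ± 0.61 in anagen and 7.79 ± 0.48 in non-anagen skin (SD, n = 14 and 85), a difference of -0.53 (SE 0.144, adjusted p = 0.00883). Ifih1 was 7.60 ± 0.57 in anagen and 7.96 ± 0.33 in non-anagen skin (SD, n = 14 and 85), a difference of -0.35 (SE 0.108, adjusted p = 0.0259). In both the anagen and non-anagen ranges overlapped. They are also the 2 members with the largest differences between tail and non-anagen dorsal skin, a comparison that shares the non-anagen arrays. The next largest were Irf7 at 0.26 (SE 0.156, adjusted p = 0.385), Parp12 at -0.23 (SE 0.0974, adjusted p = 0.145) and Ifit1 at -0.22 (SE 0.215, adjusted p = 0.636), none of which passed. Parp12 passed without the arrays whose members' mean exceeded 1 (-0.24). No member's anagen and non-anagen arrays failed to overlap (0 of 30, against 0.0106% of all genes).

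Males and females did not differ in any member at the threshold. In non-anagen dorsal skin 0 of 30 members were lower in females (6.11% of all genes) and 0 higher (6.19%), with 1 at an unadjusted p under 0.05. In tail skin 0 were lower (1.2%) and 0 higher (1.64%), with 7 at an unadjusted p under 0.05, all of them higher in females. The share of all genes at that unadjusted threshold was not counted, so these 7 cannot be set against it. The largest differences in tail skin were in Gbp2, at 5.16 ± 0.33 in females and 4.95 ± 0.34 in males (SD, n = 48 and 49) with a difference of 0.21 (SE 0.0685, adjusted p = 0.0663), Rtp4 (0.14) and Ifit3 (0.14). In dorsal skin they were in Rtp4 (-0.26), Irf1 (-0.20) and Bst2 (-0.18). The difference between the sex effects in tail and in dorsal skin passed in 0 members in either direction (4.63% and 4.46% of all genes), with 3 at an unadjusted p under 0.05. Without the arrays whose members' mean exceeded 1, Irf1 (-0.22) and Ifit2 (-0.24) were lower in females in dorsal skin, 2 of 30 against 7.73% of all genes, and Ifit2, Irf1 and Rtp4 had a higher sex effect in tail than in dorsal skin, 3 of 30 against 6% of all genes.

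The spread between mice was unequal across sites. The median SD of the members was 0.235 in tail skin, 0.456 in anagen dorsal skin and 0.487 in non-anagen dorsal skin, against medians over all genes of 0.211, 0.313 and 0.280 in the same order of sites. In non-anagen dorsal skin 29 of 30 members had an SD above the median of all genes, in anagen dorsal skin 25 and in tail skin 21. Rtp4 was the most variable in non-anagen dorsal skin (SD 0.954) and Bst2 in tail skin (SD 0.492). The median SDs without the arrays whose members' mean exceeded 1 were 0.232 in tail skin, 0.415 in anagen dorsal skin and 0.345 in non-anagen dorsal skin, 23 of 30 members lay above the median of all genes in the last of these, and Ifit3 (SD 0.627) was the most variable there.

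Correlations between members across mice were higher in dorsal than in tail skin. After sex and batch were regressed out, the median Pearson's r over the 435 pairs of members was 0.105 over 97 tail arrays, 0.437 over 14 anagen arrays and 0.512 over 85 non-anagen arrays. Over all pairs of genes the medians were 0.015, 0 and -0.001. An r above 0.5 was reached by 13 pairs in tail skin (2.99%, against 3% of all gene pairs), 179 in anagen skin (41.1%, against 9.25%) and 225 in non-anagen skin (51.7%, against 1.28%). Pairs share their arrays, and at each site the arrays of a batch, so they are described and not tested. The members' levels were also lower in tail skin (median of their means 5.24, against 6.04 in non-anagen dorsal skin). The part of level in the lower spread and correlations in tail skin was not tested.

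A few dorsal arrays carried much of this. Without the 4 non-anagen arrays that stood apart, the median r over the remaining 81 arrays was 0.196 and 35 pairs exceeded 0.5 (8.05%), and over all 85 arrays the median Spearman's rho was 0.271. Without the single tail array the median in tail skin was 0.066, and without the single anagen array that in anagen skin was 0.357. Setting aside arrays whose members' mean exceeded 1 was chosen after the values were seen.

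**Figure D3:**
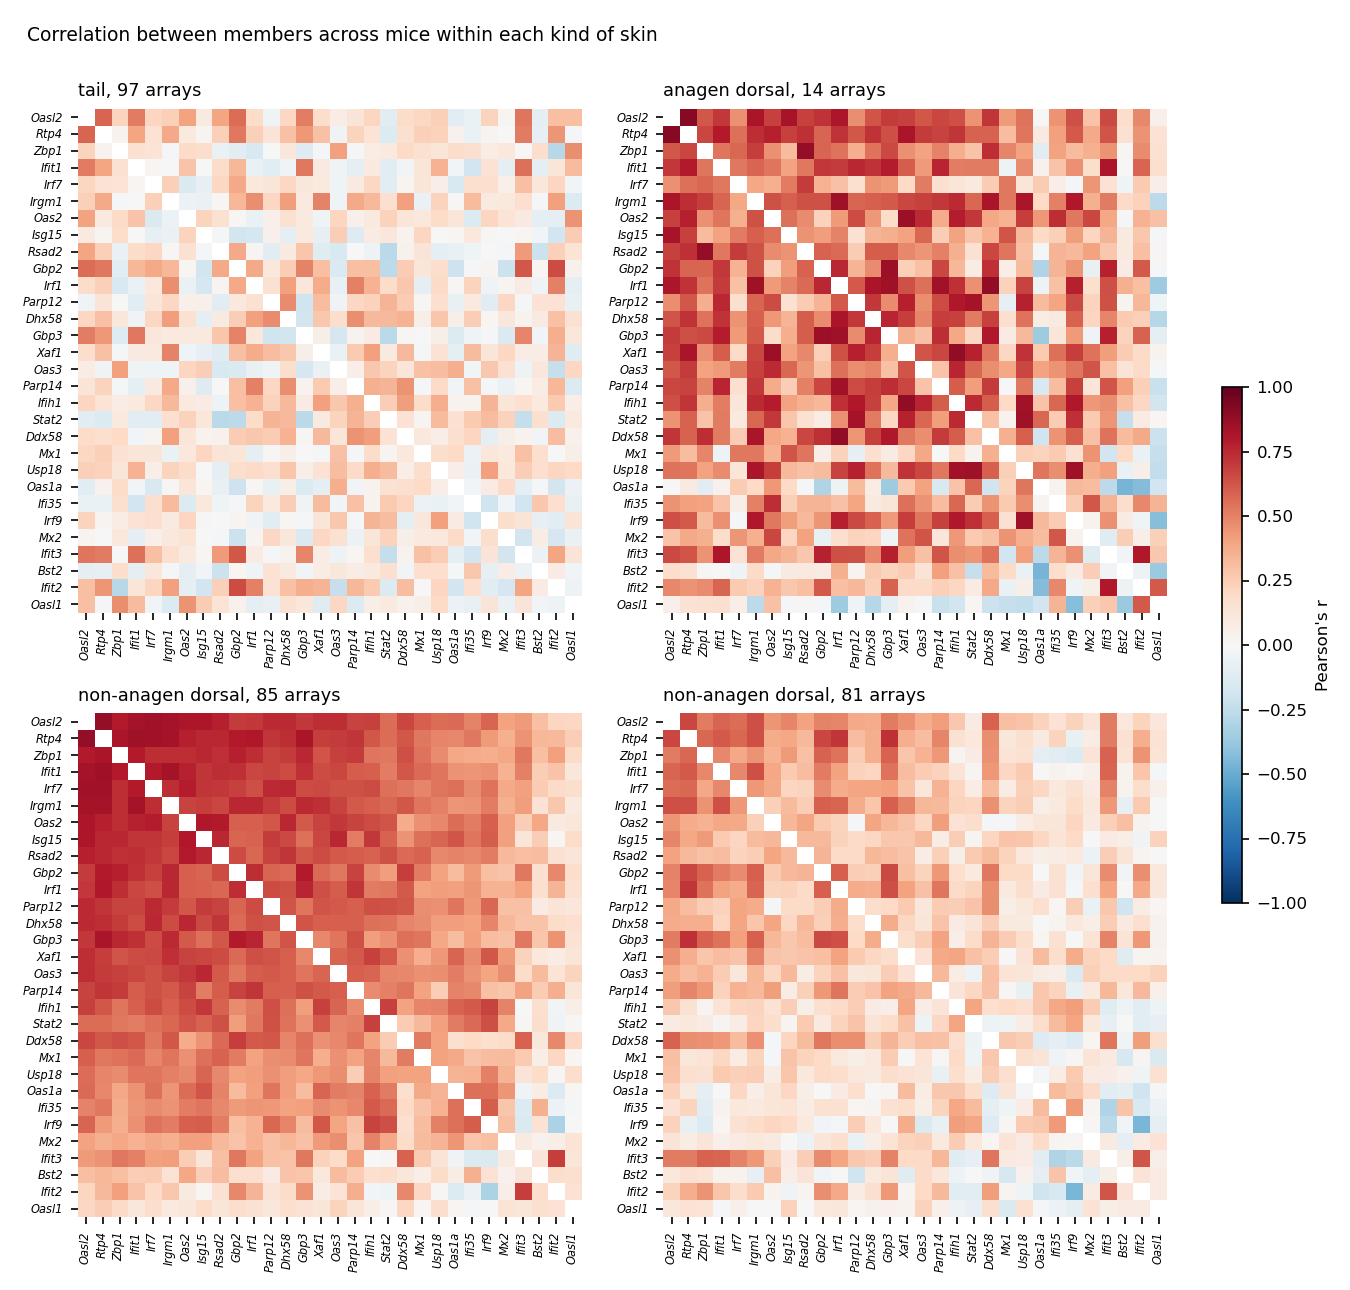
Pearson's r for each pair of the 30 members across mice in tail skin (97 arrays), anagen dorsal skin (14), non-anagen dorsal skin (85) and non-anagen dorsal skin without the 4 arrays that stood apart (81), with members in the order of their r with the mean of the others in non-anagen dorsal skin. Red is positive and blue negative on a common scale; the non-anagen panel is red nearly throughout (median 0.512), that without the 4 arrays is paler (0.196) with a block around Oasl2, Rtp4, Gbp3 and Irf1, and the tail panel is palest (0.105).

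The 4 mice were high across most members. Mouse 1075, a female, had the highest value of all non-anagen arrays in 23 of 30 members. Its log2 level of Oasl2 was 10.53, and those of mice 1010, 1093 and 1026 were 9.83, 9.51 and 8.07, against a median of 6.11 over the 85 arrays. For Rtp4 the 4 values in the same order were 10.16, 9.32, 9.12 and 8.28, against a median of 5.71. For Isg15 they were 8.91, 7.98, 7.54 and 4.98, against a median of 5.08, so mouse 1026 was not high in Isg15. Oasl1, a repressor of Irf7 translation, had another order: it was 5.75 and 5.81 in mice 1075 and 1010, near its median of 5.83, and 6.33 and 6.46 in mice 1093 and 1026, the highest of the 85 arrays. Mouse 1010 was in batch 2 and the other 3 in batch 1, and they were 2 females and 2 males.

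The same mice were not high in tail skin. The means of the standardised members in their tail arrays were -0.10 in mouse 1075, -0.14 in mouse 1010, 0.00 in mouse 1093 and 0.11 in mouse 1026, which ranked 65, 69, 43 and 32 from the top of 97. Mouse 1075 nevertheless had the highest Ifit1 level of all tail arrays, 5.23. Mouse 1017, whose tail array stood apart, was not measured in dorsal skin here, and mouse 1111, whose anagen array stood apart, had a tail value of 0.21.

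**Figure D4:**
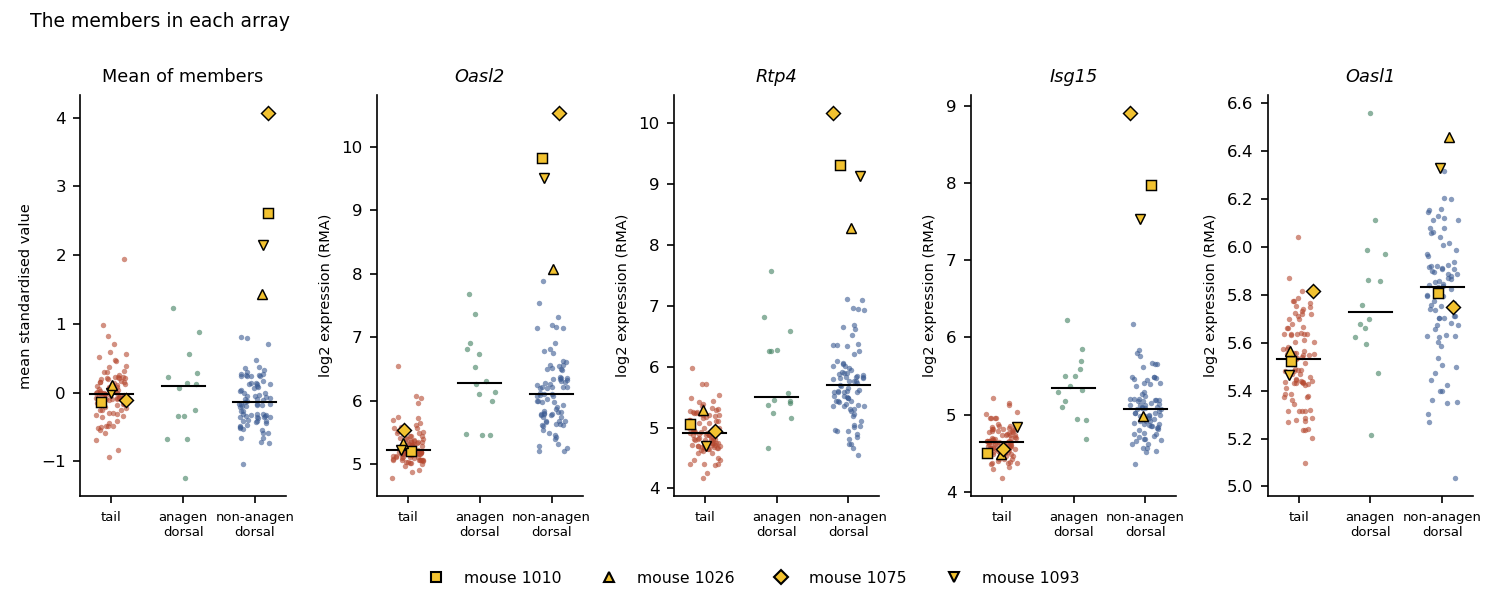
Each point is 1 array in tail, anagen dorsal or non-anagen dorsal skin, with black lines at the medians. The first panel gives the mean of the 30 standardised members and the others the log2 expression of Oasl2, Rtp4, Isg15 and Oasl1; the 4 mice whose dorsal mean exceeded 1 are marked by yellow symbols, which lie at the top of dorsal skin in Oasl2 (8.07 to 10.53) and within the cloud in tail skin.

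Members followed the others to unequal degrees. Over the 81 non-anagen arrays, r with the mean of the other 29 standardised members was highest for Oasl2 (0.79), Rtp4 (0.77) and Irgm1 (0.69) and was lowest for Bst2 (0.08) and Oasl1 (0.11). In tail skin, without the array that stood apart, r was highest for Ifih1 (0.51), Dhx58 (0.48) and Parp14 (0.48) and lowest for Isg15 (-0.11). With that array Oasl2 (0.58) was highest and Oas1a (0.04) lowest. The 5 closest pairs over the 85 arrays were Oasl2 with Rtp4, Ifit1 with Rtp4, Irf7 with Rtp4, Oasl2 with Irf7 and Ifit1 with Irgm1. Over the 81 arrays their r was 0.67, 0.61, 0.57, 0.56 and 0.65 in that order. The lowest pair was Ifit2 with Irf9 (-0.31 over 85 arrays and -0.46 over 81), followed by Ifit3 with Irf9 (-0.15) and Ifit2 with Oas1a (-0.14).

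Position and promoter letters were set beside this covariation. The 10 pairs of members within 1 Mb of each other, such as the Ifit genes and the OAS genes, had a median r of 0.270 in tail skin, against 0.102 in the other 425 pairs, and of 0.506 in non-anagen dorsal skin, against 0.513. Leaving out the arrays whose members' mean exceeded 1, these were 0.241 against 0.0641 in tail skin and 0.171 against 0.205 in non-anagen dorsal skin. Over the 85 non-anagen arrays, r with the other members had a median of 0.759 in the 13 measured members with an ISRE in the window and of 0.761 in the 9 without, and over the 81 arrays the medians were 0.456 and 0.391.

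Outside the set, the 10 genes most like the mean of the members in non-anagen dorsal skin, by Pearson's r over 85 arrays among 18790 genes, were Ddx60, Gm12250, Iigp1, Phf11d, Ube2l6, Gbp8, Samhd1, Gm4951, Tnfsf10 and Psmb10. Their r fell between 0.74 and 0.90 over all 85 arrays, where 0.692% of genes exceeded 0.5. Over the 81 arrays r was 0.75 for Ddx60, 0.69 for Iigp1 and 0.45 for Phf11d, the lowest of the 10. In tail skin r was 0.41 for Ddx60 and 0.48 for Ube2l6, the highest of the 10 there.

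Other genes of the pathway were examined by class, from lists chosen with earlier results of these data known. Of 23 listed interferon genes 14 were measured, and 14 were lower in tail than in non-anagen dorsal skin, with a median of -0.33, against 43.4% of all genes. Their levels were among the low ones, with the mean of the 14 between 4.03 and 4.72 on tail arrays and between 4.30 and 5.01 on non-anagen arrays. With only genes tested whose mean at either site exceeded the median of all gene means, 23.6% were lower. The share among the remaining genes, low at both sites, therefore exceeds 43.4%. The part of a low level in the interferon genes' difference was not tested. The largest difference was in Ifnk, the interferon kappa of keratinocytes (3.86 ± 0.28 in tail skin and 4.67 ± 0.26 in non-anagen dorsal skin, a difference of -0.80, adjusted p = 4.45e-47). Of 6 receptor chains, 1 was lower (Ifngr1, -0.79) and 3 were higher (the largest Il10rb, 0.59), against 43.4% and 43.7% of all genes. Ifnar1, a chain of the type I receptor, differed by 0.01 and did not pass. 

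Of 8 signalling genes, 4 were lower and 4 higher in tail skin, near the shares of all genes (43.4% and 43.7%). Irf2, which competes with IRF1 on promoters, was lower with a difference of -1.35 (7.61 ± 0.21 in tail skin and 8.96 ± 0.16 in non-anagen dorsal skin), and Stat3 was the highest of the class in tail skin (0.44). Of 5 inhibitors, 2 were lower (Ptpn6, -0.81, was the largest) and 1 higher. Of 9 genes of nucleic acid sensing, 3 were lower and 5 higher, with Tlr7, an endosomal receptor for single-stranded RNA, higher in tail skin by 1.36. The shares of all genes to set beside the inhibitors and the sensing genes are the same 43.4% lower and 43.7% higher.

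Of 32 other induced genes, 26 were lower in tail skin (43.4% of all genes), 3 were higher (43.7%), and 11 were lower by at least 1 (2.02%). They include Psmb8 (-2.21) and Psmb9 (-1.76), subunits of the immunoproteasome, Cxcl9 (-2.14), a chemokine induced by interferon gamma, Isg20 (-1.70) and Nlrc5 (-1.55), the transactivator of MHC class I genes. The other 6 are Iigp1 (-1.40), Tap1 (-1.35), which carries peptides for MHC class I, Gbp5 (-1.19), Cxcl10 (-1.05), Sp100 (-1.03) and Gbp4 (-1.01). The 3 that were higher were Lgals3bp (0.67), Adar (0.45) and Eif2ak2 (0.34). The other induced genes thus had a larger median difference (-0.70) than the members (-0.52), a difference that was not tested. In anagen against non-anagen dorsal skin 1 of these 32 was lower (3.59% of all genes) and 0 were higher (4.11%).

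Markers of T cells and dendritic cells were lower in tail skin, as most members were. In tail against non-anagen dorsal skin, 6 of 7 T cell markers were lower (Cd3g -3.74, Cd3e -2.55) and 1 was higher (Cd4, 0.16) and 8 of 8 markers of dendritic and Langerhans cells were lower (Cd207 -1.70, H2-Ab1 -1.62). The mean of the 7 T cell markers lay between 4.53 and 5.37 on tail arrays and between 5.71 and 6.96 on non-anagen arrays, and that of the 8 dendritic and Langerhans cell markers between 6.05 and 6.90 on tail arrays and between 6.99 and 8.44 on non-anagen arrays. Of 6 macrophage markers 5 were higher in tail skin and 1 (Adgre1) was lower, with means between 6.89 and 8.48 on tail arrays and between 6.31 and 9.01 on non-anagen arrays. Of 6 plasmacytoid dendritic cell markers, 3 were lower and 3 higher. Of 5 natural killer cell markers 4 were lower, of 4 endothelial markers 3 and of 3 B cell markers 2, with 0 higher in each. All 4 mast cell markers were higher. Of 5 neutrophil markers 4 were higher and 1 lower, and of 4 keratinocyte markers 3 were higher and 1 lower. Of 4 adipocyte markers 2 were lower and 1 higher. Over all genes 43.4% were lower and 43.7% higher, the shares to set beside each marker count in this comparison. All 5 hair follicle genes were higher in tail than in non-anagen skin, with means between 6.44 and 11.72 on tail arrays and between 4.94 and 6.41 on non-anagen arrays, and all 4 skeletal muscle genes were lower, with means between 5.12 and 9.23 on tail arrays and between 5.38 and 11.82 on non-anagen arrays. The part of these markers in the members' difference was not tested.

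Across mice within non-anagen dorsal skin, the median r of the marker genes with the mean of the members was 0.473 for dendritic and Langerhans cell markers, 0.444 for macrophage markers, 0.361 for adipocyte markers, 0.264 for mast cell markers, 0.256 for T cell markers, 0.191 for endothelial markers and -0.159 for keratinocyte markers. Over the 81 arrays the medians were 0.381 for dendritic and Langerhans cell markers, 0.453 for macrophage markers, 0.352 for adipocyte markers, 0.346 for mast cell markers, 0.273 for T cell markers, 0.364 for endothelial markers and -0.373 for keratinocyte markers. Over the 14 anagen arrays the medians were 0.636 for dendritic and Langerhans cell, 0.512 for T cell, 0.490 for keratinocyte and 0.315 for endothelial markers. They were 0.077 for macrophage, -0.090 for mast cell, -0.151 for adipocyte and -0.584 for hair follicle markers. In tail skin the highest medians were those of endothelial markers (0.377), macrophage markers (0.368), mast cell markers (0.329), skeletal muscle markers (0.277) and adipocyte markers (0.259), above dendritic and Langerhans cell markers (0.194) and T cell markers (0.172). Without the tail array of mouse 1017 these were 0.422, 0.384, 0.324, 0.270, 0.263, 0.268 and 0.209 in that order, with dendritic and Langerhans cell markers above adipocyte markers. The mean of the members there was followed most closely by Fmnl1 (0.65), Selplg (0.61) and Atp10a (0.61), and Itgb2 (0.58) and Csf1 (0.58) were also among the 10 closest; Fmnl1, Selplg and Itgb2 are genes of blood leukocytes. The 14 measured interferon genes had a median r of -0.01 with the members in non-anagen dorsal skin and of -0.14 in tail skin.

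Levels in the tail and dorsal skin of the same mouse were compared in 82 mice, with sex and batch regressed out, to ask whether a mouse that is high at one site is high at the other. The mean of the members had r = -0.01 and rho = -0.02 between the sites over 82 mice, and r = 0.01 over 78 mice without the 4. For 9 members the values at a site split into 2 clusters, each of 6 or more mice and with means 4 or more pooled SDs apart. Except in Bst2, each upper cluster held the minimum of 6 arrays. In dorsal skin 3 or 4 of those 6 were arrays that stood apart. No r over all mice is given for these 9, except for Bst2 below and Oas2. Oas2 had r = 0.31 (permutation p = 0.00531, adjusted p = 0.0561) and rho = 0.34 (permutation p = 0.00161, adjusted p = 0.0217). With each array shifted to the same median its r was 0.42 (permutation p = 0.00013, adjusted p = 0.00293). Within its lower dorsal cluster r was 0.19 over 76 mice. Among the other 21 members, 0 were correlated at an adjusted p under 0.05, against 8.89% of all genes with a positive correlation called, and 3 reached an unadjusted p under 0.05 in a permutation test. Their r lay between -0.27 (Dhx58) and 0.33 (Ifit1), with a median of 0.09, and 16 of 21 were above 0. The share of all genes includes genes with clusters; with clustered members kept, 1 of 30 members was called (Bst2).

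Ifit1 came closest, with r = 0.33 (permutation p = 0.0046, adjusted p = 0.0509) and rho = 0.13 (permutation p = 0.254, adjusted p = 0.586). Without the 2 mice farthest from the dorsal median its r was 0.11, so the relation rests on those mice. Dhx58 had r = -0.27 (permutation p = 0.0152, adjusted p = 0.12) and rho = -0.28 (permutation p = 0.0109, adjusted p = 0.0904), with r = -0.25 without the 2 farthest mice. Irgm1, with r = 0.12 over the 82 mice, passed under 3 alternatives, among them r = 0.39 (permutation p = 0.00037, adjusted p = 0.00744) when the 4 mice were left out.

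Bst2 was distributed unlike the other members. In tail skin its 97 values fell into a lower cluster of 42 arrays (5.63 to 6.35) and an upper cluster of 55 arrays (5.92 to 7.40), with means 4.79 pooled SDs apart after sex and batch were regressed out. In non-anagen dorsal skin the best split gave 32 and 53 arrays, 3.82 pooled SDs apart. Of the 60 splits made in the 30 members at both sites, that of Bst2 in tail skin and 9 others passed the limit, and in those 9 the upper cluster held 6 arrays. Over all 82 mice, with the clusters pooled, tail and dorsal Bst2 were correlated (r = 0.73, permutation p = 1.0e-05, adjusted p = 0.000412, rho = 0.69). That r mixes the difference between clusters with the variation within them. Within the lower tail cluster the r between tail and dorsal Bst2 was 0.11 over 33 mice (permutation p = 0.534, adjusted p = 0.587; rho = -0.03, permutation p = 0.872, adjusted p = 0.872). Within the upper cluster it was 0.37 over 49 mice (permutation p = 0.00801, adjusted p = 0.0513; rho = 0.31, permutation p = 0.0305, adjusted p = 0.168) and 0.21 without the 2 farthest mice. Ifih1, in the 76 mice of its lower dorsal cluster, had r = 0.30 (permutation p = 0.00932, adjusted p = 0.0513; rho = 0.30). Adjustment was over 11 such within-cluster relations, of which 0 passed.

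**Figure D5:**
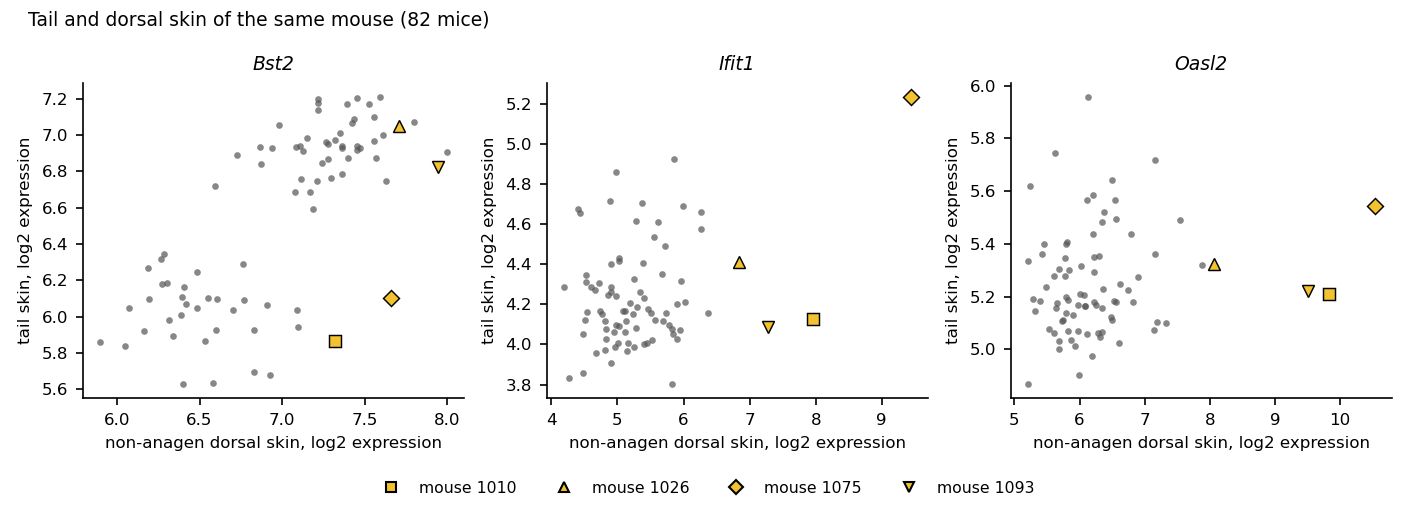
Log2 expression in tail skin (vertical axis) against non-anagen dorsal skin (horizontal axis) of the same 82 mice for Bst2, Ifit1 and Oasl2, with yellow symbols for the 4 mice whose dorsal members stood apart. Bst2 in tail skin splits into 2 bands, a lower and an upper; in Ifit1 and Oasl2 the yellow symbols lie far to the right, and of them only mouse 1075 is at the top of the vertical axis in Ifit1 (5.23).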

How the data were processed

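Arrays were grouped by the site, hair cycle, sex, batch and mouse number in the labels. The deposited values are log2 expression values that the authors made by RMA (background correction, normalization and summary of probes), per the submitters' processing notes; the RMA version, and whether both sites were normalized together, is not given in the sources used here. The table held 35556 probe sets, of which 21218 named 1 gene, 1881 several and 12457 none, by a platform annotation that can be old. For each of 18820 genes the probe set with the highest mean was kept. No array was left out, no low values were filtered, and 0 pairs of arrays held identical values. Precision is limited by how many arrays each site has.

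Every comparison was a linear model of limma 3.58.1 (R 4.3.3) that held sex, and batch in those within dorsal or tail skin; p-values are two-sided, adjusted by Benjamini-Hochberg over all 18820 genes and called under 0.05. Counts of members at an unadjusted p under 0.05 have no share of all genes beside them and are not read as results about the members. The fits were tested on simulated shifts. Correlations used Python 3.11.15 with 100000 permutations, two-sided. The mouse number pairs the sites: a mouse's tail and own dorsal deviations over all genes had a median r of 0.143 (82 mice, -0.226 to 0.357). Members, lists, tests and the rule for named genes (full values for the 8 largest differences of tail, 5 of anagen and 3 of each sex comparison, the extreme pairs, the 10 most like genes and, per pathway class, differences of at least 1 and the largest) were chosen with earlier results of these data known; leaving out arrays with a mean of the members above 1 was chosen after seeing the data. Gene neighbours and promoters came from RefSeq GRCm38.p6, and the files name no genome build.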

Additional observations from a re-analysis of the deposited data

How the results depend on the processing

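Scaling, batches, covariates, probe set choice, low values, pairing and arrays that stood apart were varied one at a time. With mouse as a random replicate block (correlation 0.062), 26 members were lower in tail than in non-anagen dorsal skin and 1 higher (8200 and 8252 of 18820 genes). Against anagen dorsal skin 22 were lower and 2 higher (6577 and 7320 genes). With the paired difference within each mouse 26 were lower and 1 higher against non-anagen skin (8222 and 8280 genes). Against anagen skin that difference gave 17 lower and 1 higher (4520 and 6052 genes). Against non-anagen skin neither form of the replicate block changed a member's call; against anagen skin the random block added Bst2 and the paired difference dropped 6 calls and added Bst2. Another fit kept only genes whose mean in either of the 2 sites compared exceeded the median of all gene means. In it 12 of 13 members were lower (23.6% of the genes tested) and 0 higher (65.3%) in tail against non-anagen skin. Against anagen skin 9 of 11 were lower (17.7%) and 1 higher (61.4%). A gene that is high only in dorsal skin passes this filter through that site. These counts are therefore not a test of the members' direction. With each array shifted to the same median, 0 members were higher in either tail comparison, and the median r between sites was 0.163. Under that shift 13 members were lower by at least 1 against non-anagen skin (620 of 18820 genes) and 10 against anagen skin (494 of 18820 genes). As deposited these counts over all genes were 381 and 318. Quantile normalization left 1 member higher against anagen skin (5714 of 18820 genes), and batches 1 and 4 alone gave 2 higher against non-anagen skin (8145 genes). Without the arrays whose members' mean exceeded 1, 2 members were higher against non-anagen skin, 2 were lower in female dorsal skin and 3 had a higher sex effect in tail. The cause of these changes was not tested.

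For pairs of members, Spearman's rho left 1 pair above 0.5 in tail skin and 49 in non-anagen skin (median 0.271). Without the 2 mice farthest from the median, 5 pairs (median 0.055) stayed above 0.5 in tail skin, 111 in anagen skin and 69 (median 0.289) in non-anagen skin. Without the arrays whose members' mean exceeded 1, the medians were 0.066 in tail skin and 0.196 in non-anagen skin, with 35 pairs above 0.5. Between the sites of a mouse, 1 of the 21 members without clusters was called in each of several alternatives. It was Ifit1 with batches 1 and 4 only (r = 0.41). It was Irgm1 with Spearman's rho, without the arrays whose members' mean exceeded 1 and without the 2 farthest mice. Over all 30 members these alternatives called 2, 3, 2 and 2, against 1407, 1804, 1694 and 1619 of 18820 genes with a positive correlation. Bst2 was among them each time, and Oas2 with Spearman's rho. With each array shifted to the same median, Bst2 and Oas2 were called, against 1957 genes. Of 426 alternatives for single members, 402 kept direction and side of the threshold, 11 newly passed it, 5 no longer passed it and 8 changed sign. Those 8 were, in tail against non-anagen skin, Dhx58 at 0.00633 with the paired replicate block, 0.0537 with quantile normalization, 0.00494 with batches 1 and 4 and 0.0648 without the arrays whose members' mean exceeded 1, Parp12 at 0.0404 without those arrays, Irf7 at -0.0790 with the same median and Mx1 at 0.00265 with quantile normalization, and, against anagen skin, Parp12 at -0.0285 with quantile normalization. Of the alternatives for counts and medians, 164 stayed near the main value and 30, given above, did not. For a count or a median r, near meant within 1.5 times. For a median difference it meant a move under 0.487, the median SD of the members in non-anagen dorsal skin. That limit is larger than the anagen and sex median differences themselves, so a change of sign in these would still count as near. Counting AANNGAAA in place of the ISRE gave 18 members in place of 14. The comparisons with anagen skin rest on 14 arrays, and probe signal near background could not be judged from the deposited values.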

Other observations

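Probe sets that name a listed member together with another gene were left out of every comparison, and their values are given here. The probe set of Igtp and Irgm2 measured 4.82 ± 0.16 in tail skin (SD, n = 97), 6.10 ± 0.52 in anagen dorsal skin (n = 14) and 6.14 ± 0.63 in non-anagen dorsal skin (n = 85). That of Gbp6 with Gbp10 and Gbp11 measured 5.46 ± 0.23, 6.66 ± 0.64 and 6.87 ± 0.64, and a second of Gbp6 with Gbp11 measured 3.70 ± 0.23, 4.38 ± 0.45 and 4.38 ± 0.56, in the same order of sites. The 2 probe sets of Parp9 with Dtx3l measured 6.42 ± 0.24, 6.91 ± 0.38 and 7.17 ± 0.36, and 6.66 ± 0.26, 7.05 ± 0.50 and 7.25 ± 0.35. Which of the named genes each value belongs to cannot be told apart.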
